A study of Mus musculus with 8 samples.

Results

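The transcripts described here are those of 8 genes of Schwann cells and axons, Sox10, Cdh19, Mbp, Pmp22, Gap43, Uchl1, Tubb3 and Ndrg4, chosen by gene symbol from the 23597 genes of a table of mouse corneal RNA-seq. All 8 were in the table, and 5 of them (Mbp, Pmp22, Gap43, Uchl1 and Ndrg4) reached the mean of 0.5 FPKM required for testing, as did 12100 genes in all. FPKM are fragment counts divided by the length of the gene and by the depth of its library. Dry eye had been induced by scopolamine, which blocks muscarinic receptors, and corneas were taken at day 14 of its injection. The 4 ICI samples came from scopolamine-injected mice treated with ICI 118551, a blocker of β2-adrenergic receptors, and the 4 Scop samples from scopolamine-injected mice left without that drug. A sample pooled 4 corneas, and scopolamine was common to all 8 samples. The sources used here do not give the strain, sex and age of the mice, the dose of ICI 118551 or the mice behind each pool. The spread that p-values measure is thus that between pools and may be technical. Setting ICI against Scop asks how blocking β2-adrenergic signalling alters the transcripts of a cornea with dry eye.

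The cornea is among the most densely innervated tissues of the body. Its sensory axons come from neurons of the trigeminal ganglion, and its sympathetic axons from the superior cervical ganglion. The cell bodies of both therefore lie outside the tissue sampled, and the axons bring in only the mRNA they carry. Schwann cells, the glia of peripheral nerves, accompany the axons through the stroma, where myelin is lost near the limbus and most fibres are wrapped by non-myelinating Schwann cells. In bulk corneal RNA, fewer cells of a type and less RNA per cell cannot be told apart.

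Ndrg4 was higher and Pmp22 lower in every ICI library than in any Scop library, and neither difference passed the test adjusted over all genes. Ndrg4, which codes for a cytoplasmic protein of the N-myc downstream-regulated family known from brain and heart, was at 4.10 ± 0.502 FPKM in ICI and 2.41 ± 0.323 FPKM in Scop (means with SD over 4 ICI and 4 Scop libraries, here and below). Pmp22, the peripheral myelin protein of compact myelin that fibroblasts and epithelia also make, was at 15.6 ± 0.608 FPKM in ICI and 17.9 ± 0.460 FPKM in Scop. The myelin gene Mbp and the axonal genes Gap43 and Uchl1 overlapped between the groups. Sox10, Cdh19 and Tubb3 lay under the limit for testing, and their values also overlapped.

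At an adjusted p under 0.05, limma called 0 of the 5 tested members and 0 of all 12100 tested genes (0%). By unadjusted p at the same threshold, 552 genes (4.56%) were counted as higher and 903 (7.46%) as lower in ICI, among them 1 member in each direction, Ndrg4 and Pmp22. Limma-voom on recovered fragments called 0 members and 0 genes after adjustment, and 516 and 935 genes without it. Of the tested members, 1 did not overlap and was higher in ICI, a state found in 2.63% of all tested genes. Another 1 did not overlap and was lower, as were 4.36% of all tested genes. The members were chosen with results of these data known, so these 2 shares say nothing about the members as a group.

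**Figure D1:**
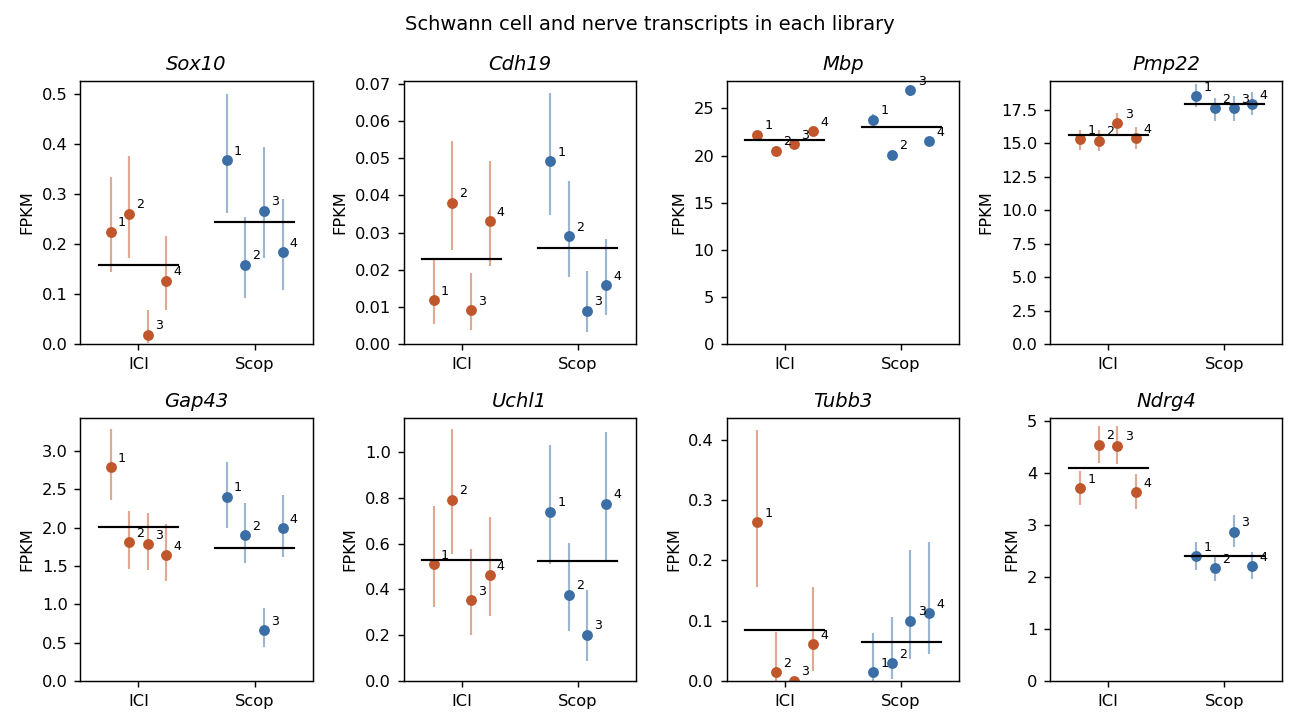
FPKM (vertical axis, from 0) of the 8 genes in each ICI and Scop library, numbered by replicate. Thin bars are exact 95% Poisson intervals of the fragments behind each value (counting error only, not drawn for the value at 0) and black lines are group means. Ndrg4 lay between 3.63 and 4.54 FPKM in ICI and between 2.17 and 2.87 FPKM in Scop, and Pmp22 between 15.2 and 16.5 FPKM in ICI and between 17.6 and 18.5 FPKM in Scop.

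Sox10 (chromosome 15, 79154908 to 79165240, minus strand; all coordinates are those of GENCODE M21 on GRCm38, the mm10 build) codes for the transcription factor that specifies and maintains Schwann cells, and melanocytes use it too. It stood at 0.225, 0.261, 0.0187 and 0.127 FPKM in ICI replicates 1, 2, 3 and 4, and at 0.368, 0.159, 0.267 and 0.184 FPKM in Scop replicates 1, 2, 3 and 4. The groups overlapped, and ICI replicate 3 lay below every other library. These values rested on 24, 28, 2 and 13 fragments in the ICI replicates and on 40, 17, 25 and 18 in the Scop replicates. The 2 fragments of ICI replicate 3 have an exact 95% Poisson interval of 0.242 to 7.22, which lies below the interval of ICI replicate 2 (18.6 to 40.5). With every detected gene in the fit, the log2 fold change of Sox10 was -0.11 (SE 0.08, limma adjusted p = 0.781 over 22776 genes). Fold changes here are differences of log2(FPKM + 1), ICI minus Scop, which understate those of low genes.

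Cdh19 (chromosome 1, 110888326 to 110977584, minus strand), a cadherin gene of Schwann cell precursors and adult Schwann cells, had 9, 29, 7 and 24 fragments in ICI replicates 1 to 4 and 38, 22, 6 and 11 in Scop replicates 1 to 4. Its FPKM ran from 0.00921 to 0.0380 in ICI and from 0.00901 to 0.0491 in Scop, so the Scop values enclosed those of ICI. Cdh19 had the lowest mean FPKM of the 8 genes (0.0244), although its 146 fragments over all libraries were close in number to the 167 of Sox10. The gene length that the deposited FPKM imply was 19384 bases for Cdh19, against 4280 bases of annotated exons in GENCODE M21. The implied length of Cdh19 was thus 4.53 times the annotated one, and 2.23% of the 18541 genes with both lengths had a larger ratio. Its FPKM are lower by that factor than they would be with the annotated length. For the other 7 genes the implied length was between 0.693 and 1.08 times the annotated one.

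Mbp (chromosome 18, 82475146 to 82585637, plus strand) codes for myelin basic protein, which compacts the myelin sheath, and the same locus gives golli transcripts, which are also made outside myelinating cells. It was the highest of the 8 genes, at 22.2, 20.5, 21.2 and 22.6 FPKM in ICI replicates 1 to 4 and at 23.8, 20.1, 26.9 and 21.5 FPKM in Scop replicates 1 to 4. The Scop libraries held both the highest and the lowest value, and the log2 fold change was -0.08 (SE 0.08, limma adjusted p = 0.725). Within a library the FPKM of Mbp were 78.7 to 1133 times those of Sox10 in ICI and 64.8 to 126 times in Scop, where the value of 1133 comes from the 2 fragments of ICI replicate 3. The files give 1 value per gene, so the transcripts of the Mbp locus were not told apart.

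Pmp22 (chromosome 11, 63128982 to 63159547, plus strand) stood at 15.3, 15.2, 16.5 and 15.4 FPKM in ICI replicates 1 to 4, against 18.5, 17.6, 17.6 and 17.9 FPKM in Scop replicates 1 to 4. No ICI library reached the lowest Scop library, and ICI replicate 3 came closest. The log2 fold change was -0.19 (SE 0.05), with an unadjusted p of 0.00335 and a limma adjusted p of 0.214. With the ribosomal RNA score described below for Ndrg4 in the fit, it was -0.19 (SE 0.07, limma adjusted p = 0.625). Each value rested on at least 1469 fragments, and the SD between libraries was 1.53 times the counting error in ICI and 1.06 times in Scop. Pmp22 had the smallest coefficient of variation of the 8 genes over the 8 libraries (8.01%). No relation of Pmp22 with Sox10 across the libraries passed the test (Pearson r = 0.30, exact permutation p = 0.488; Spearman rho = 0.31, exact permutation p = 0.462; adjusted p = 0.989 and 0.915 over the 28 pairs of members), and r was -0.05 without ICI replicate 3 and Scop replicate 1, the libraries farthest from the median of Sox10.

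**Figure D2:**
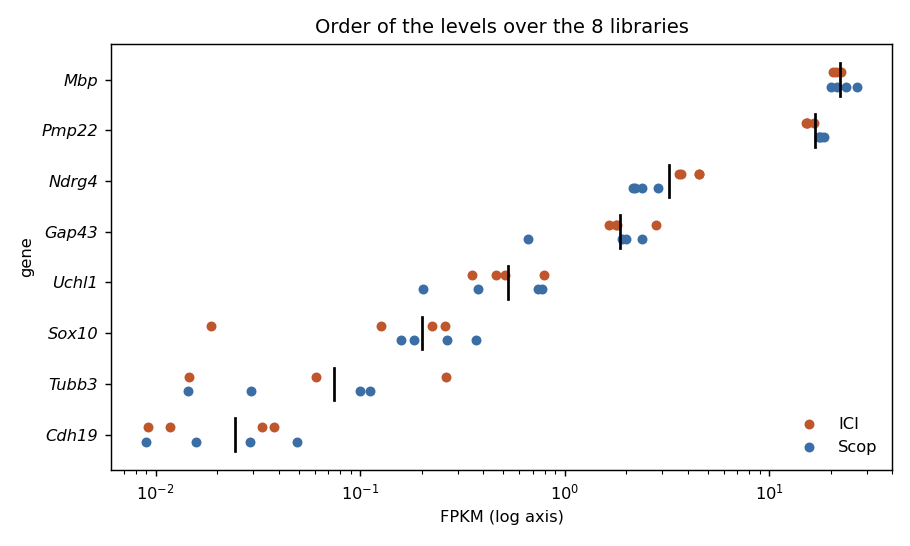
FPKM on a log axis of the 8 genes in ICI (upper points of each row) and Scop (lower points), ordered by the mean over the 8 libraries (black marks). Tubb3 in ICI replicate 3 is at 0 and is not drawn. Mbp and Pmp22 lie apart from the rest, and the ranges of every neighbouring pair below Ndrg4 overlap.

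In FPKM, the order of the mean levels over the 8 libraries was Mbp (22.3), Pmp22 (16.7), Ndrg4 (3.25), Gap43 (1.87), Uchl1 (0.526), Sox10 (0.201), Tubb3 (0.0742) and Cdh19 (0.0244). Mbp lay above Pmp22 and Pmp22 above Ndrg4 in 8 of 8 libraries, with no overlap of their ranges. Ndrg4 exceeded Gap43 in 7 of 8 libraries, and from there down the ranges of neighbours overlapped. Tubb3 exceeded Cdh19 in 5 of 8 libraries, so the order of these 2 genes was not clear. The last place of Cdh19 also depends on its implied length, 4.53 times the annotated one. In fragments over all libraries Cdh19 had 146 and Tubb3 39.

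The axonal genes Gap43, Uchl1 and Tubb3 were low, and their group means differed by less than the SD of either group. Gap43 (chromosome 16, 42248442 to 42340651, minus strand), which codes for a growth cone protein of growing and regenerating axons and is also made by Schwann cells without myelin, stood at 2.79, 1.81, 1.78 and 1.64 FPKM in ICI replicates 1 to 4. In Scop replicates 1 to 4 it stood at 2.40, 1.90, 0.664 and 1.99 FPKM. The lowest value by far was that of Scop replicate 3, with 30 fragments against 81 to 144 in the other libraries. The log2 fold change was 0.17 (SE 0.21, limma adjusted p = 0.775), and -0.05 without Scop replicate 3.

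Scop replicate 3 also had the lowest values of the keratocyte genes, which mark the stromal cells through which the nerves run. Kera, a keratan sulphate proteoglycan gene, stood there at 39.0 FPKM, against 164 to 249 FPKM in ICI and 163 to 184 FPKM in the other Scop libraries. The summed level of the 9 keratocyte markers lay between 1692 and 2277 FPKM in ICI and between 659 and 1995 FPKM in Scop, and all 8 tested markers had positive log2 fold changes (median 0.49, and 0.12 without Scop replicate 3). With the keratocyte score of each library in the fit, the log2 fold change was -0.16 (SE 0.10) for Gap43, -0.14 (SE 0.12) for Uchl1 and 0.01 (SE 0.08) for Mbp. The score was 4.83 in Scop replicate 3 and 5.95 to 6.30 in the other libraries, so this fit leans on Scop replicate 3. The part of stromal content in the values of Gap43 was not tested beyond this fit.

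Uchl1 (chromosome 5, 66676091 to 66687234, plus strand), the ubiquitin hydrolase known as the neuronal marker PGP9.5, was at 0.509, 0.793, 0.354 and 0.463 FPKM in ICI replicates 1 to 4. In Scop replicates 1 to 4 it was at 0.740, 0.376, 0.202 and 0.774 FPKM. The groups overlapped over most of their range, and the lowest library was again Scop replicate 3, with 8 fragments. The log2 fold change was 0.02 (SE 0.14, limma adjusted p = 0.972), and its sign turned without Scop replicate 3 (-0.09) and without Scop replicate 2 (-0.02). Its exons share 295 bases with those of the antisense gene Uchl1os, and the sources used here do not say whether reads were counted by strand. Gap43 and Uchl1 had the largest positive correlation among the 28 pairs of members, with Pearson r = 0.63 (exact permutation p = 0.0730, adjusted 0.971) and Spearman rho = 0.57 (exact permutation p = 0.151, adjusted 0.915). Without ICI replicate 1 and Scop replicate 3, r was 0.50.

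Tubb3 (chromosome 8, 123411424 to 123422015, plus strand), the neuronal β-tubulin, had 18, 1, 0 and 4 fragments in ICI replicates 1 to 4 and 1, 2, 6 and 7 in Scop replicates 1 to 4. ICI replicate 1 thus held 18 of the 39 fragments counted in all libraries, at 0.263 FPKM. For the count of 0 in ICI replicate 3, the floor of 3 fragments corresponds to 0.0438 FPKM, and the two-sided exact 95% Poisson interval ends at 3.69 fragments. The groups overlapped, and the SD between libraries was 3.45 times the counting error in ICI and 1.54 times in Scop. With every detected gene in the fit, the log2 fold change was 0.02 (SE 0.07, limma adjusted p = 0.930).

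Ndrg4 (chromosome 8, 95676980 to 95715119, plus strand) stood at 3.70, 4.54, 4.52 and 3.63 FPKM in ICI replicates 1 to 4, against 2.40, 2.17, 2.87 and 2.20 FPKM in Scop replicates 1 to 4. Every ICI library lay above every Scop library, and the ratio of the means was 1.70. The counts behind these values were 491, 606, 601 and 461 fragments in ICI and 324, 288, 334 and 268 in Scop. The log2 fold change was 0.58 (SE 0.09), with an unadjusted p of 0.000113, the rank of 10 among all tested genes, and a limma adjusted p of 0.136. On the recovered fragments, without the pseudocount of 1 FPKM, it was 0.77 (SE 0.13, limma-voom adjusted p = 0.115).

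Without Scop replicate 3, the library with the lowest keratocyte genes, the log2 fold change of Ndrg4 was 0.64 (limma adjusted p = 0.0795), against 0.58 with all libraries. With the keratocyte score in the fit, which leans on the same library, it was 0.66 (limma adjusted p = 0.0827). Over all alternatives the adjusted p of Ndrg4 ranged from 0.0795 to 0.518. The part of stromal content in the values of Ndrg4 was not tested beyond these fits. Gm26917, a locus that collects reads of ribosomal RNA, was at 3666 to 3836 FPKM in ICI and at 689, 912, 1120 and 4936 FPKM in Scop replicates 1, 2, 3 and 4. Scop replicates 1, 2 and 3 thus lay below every ICI library in Gm26917, and Scop replicate 4 lay above them. The groups and this signal can hardly be told apart with these libraries, and a fit with both leans on Scop replicate 4. With a ribosomal RNA score of each library in the fit, an alternative chosen after seeing the data, the log2 fold change of Ndrg4 was 0.64 (SE 0.14, limma adjusted p = 0.518). The part of ribosomal RNA reads in the values of Ndrg4 and Pmp22 was not tested beyond this fit. The related genes Ndrg1, Ndrg2 and Ndrg3 overlapped between the groups. Ndrg1 was at 56.6 ± 6.51 FPKM in ICI and 54.3 ± 2.49 FPKM in Scop, Ndrg2 at 3.55 ± 0.809 FPKM in ICI and 2.69 ± 0.742 FPKM in Scop, and Ndrg3 at 14.9 ± 0.670 FPKM in ICI and 15.3 ± 1.44 FPKM in Scop. Their limma adjusted p lay between 0.476 and 0.852.

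Ndrg4 is annotated by RefSeq with 4 start sites on GRCm38.p6, and Pmp22 likewise with 4, and the FPKM of a gene do not tell them apart. As the genes of the pair whose groups did not overlap, they were searched in the 250 bases before each start, on both strands, for the cAMP response element TGACGTCA and its core TGACG, which lies within it, for the E-box CACGTG of clock factors and for the glucocorticoid receptor half-site TGTTCT. The E-box was found in 1 of the 4 windows of Ndrg4, and none of the other letters in any of the 8 windows. Of all 32851 windows of that length in the RefSeq table, 6.02% hold the E-box, 1.55% TGACGTCA, 17.8% TGACG and 16.1% TGTTCT. The window with the E-box, in capitals, is shown because it is the only match, and lies at chr8:95677513-95677762 on the plus strand.
Ndrg4 upstream window: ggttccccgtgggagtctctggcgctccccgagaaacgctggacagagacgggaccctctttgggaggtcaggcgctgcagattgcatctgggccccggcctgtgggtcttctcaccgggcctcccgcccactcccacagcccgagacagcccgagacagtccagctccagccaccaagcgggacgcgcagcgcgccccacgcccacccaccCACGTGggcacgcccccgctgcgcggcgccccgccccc
The match is a description of the letters in this window.

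Across the 8 libraries no pair of members passed the test of correlation. Of the 28 pairs, 14 had a positive Pearson r, and none passed after adjustment (smallest adjusted p = 0.754). The largest r in size was that of Pmp22 with Ndrg4 (r = -0.82, exact permutation p = 0.0269; rho = -0.76, exact permutation p = 0.0368, adjusted 0.915), which the difference between the groups spans, and it was -0.75 without ICI replicates 1 and 2. For Sox10 and Cdh19, both genes of Schwann cells, r was 0.50 (exact permutation p = 0.208, adjusted 0.971) and rho 0.26 (exact permutation p = 0.536, adjusted 0.915), and r was -0.35 without ICI replicate 3 and Scop replicate 1. Scop replicate 1 held the highest value of Sox10, Cdh19 and Pmp22, and Scop replicate 3 the lowest of Cdh19, Gap43 and Uchl1.

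**Figure D3:**
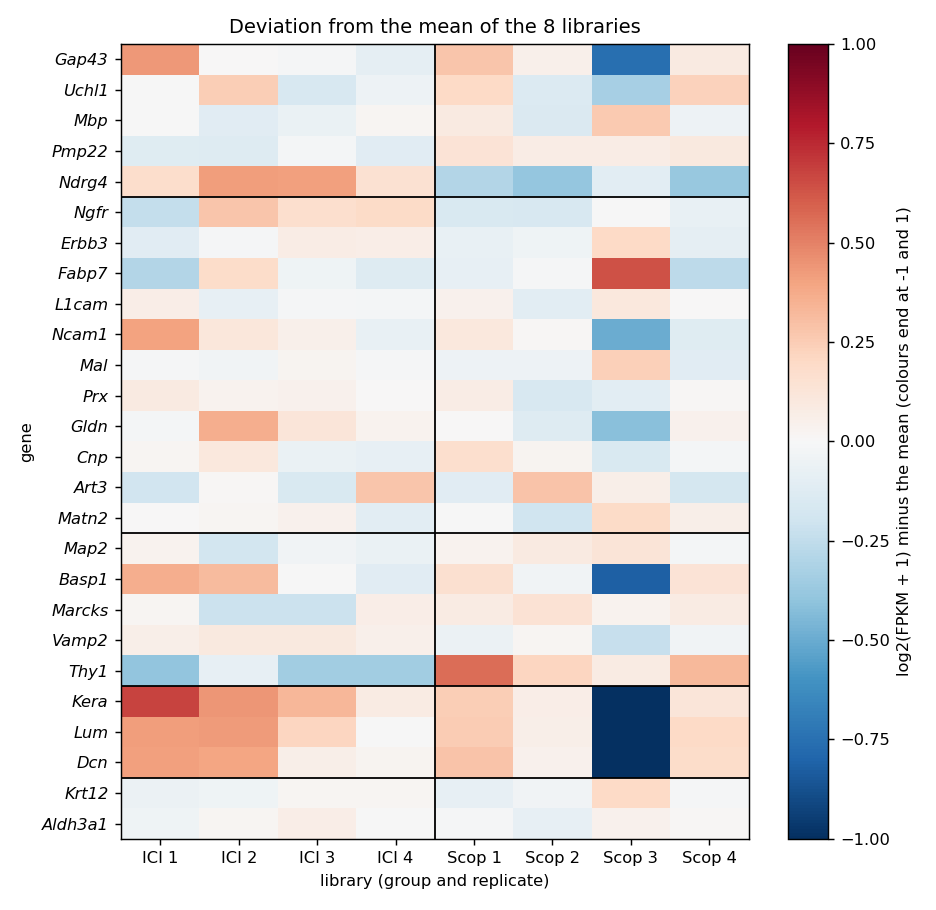
Deviation of log2(FPKM + 1) from its mean over the 8 libraries (colour) for the 5 tested members, the tested genes of the Schwann cell and axonal lists (without 1 gene that is not reported here), the keratocyte genes Kera, Lum and Dcn and the epithelial genes Krt12 and Aldh3a1, in blocks from top to bottom, with ICI libraries left of Scop libraries. Of the 17 tested genes of both lists, 5 were lowest and 6 highest in Scop replicate 3, where Gap43, Uchl1 and the 3 keratocyte genes were lowest and Mbp highest.

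Genes with the most similar profiles were sought by the root mean square difference of centred log2(FPKM + 1) over the 8 libraries, among tested genes with an SD close to that of the member. For Ndrg4 they were Narf, a prelamin-binding protein gene (0.08, against an SD of Ndrg4 of 0.33), Capsl, a calcyphosine-like gene (0.12), and Cyp2w1, a cytochrome P450 gene (0.13), out of 627 compared. Narf was at 6.52, 8.06, 8.09 and 6.10 FPKM in ICI replicates 1 to 4 and at 4.82, 4.52, 6.08 and 4.58 FPKM in Scop replicates 1 to 4, with ICI replicates 2 and 3 highest and Scop replicate 3 the highest of Scop, as for Ndrg4. For Mbp they were Ippk, an inositol phosphate kinase gene (0.04), Rap1gap, which codes for an inactivator of the GTPase Rap1 (0.05), and Kank1 (0.05), out of 3919 and against an SD of 0.13. For Sox10 they were Tdrd7, a tudor domain gene (0.05), Tpra1 (0.05) and the kinase-like gene Stk40 (0.06), out of 3964 and against an SD of 0.13. The values of Sox10 rested on 2 to 40 fragments in a library, and counting error was not set against its differences from these genes. For Cdh19, whose SD on this scale was 0.02, only 12 genes could be compared, and Cct2, Mmadhc and Rab7 came first (0.02, 0.02 and 0.03). These differences are about as large as the SD of Cdh19 itself, so no likeness can be read from them.

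Other genes of Schwann cells and myelin gave no call. Of 27 listed genes 12 were tested, 0 passed in either direction, and 5 had positive and 7 negative log2 fold changes, with a median of -0.01 against -0.02 over all tested genes. Without Scop replicate 3, 8 were positive and 4 negative, and with the keratocyte score in the fit 10 were positive and 2 negative (median 0.05 in both). With no filter, 14 of the 27 were positive and 13 negative (median 0.00). Under the limit for testing, Gfra3 (0.0127 to 0.139 FPKM in ICI, 0.218 to 0.387 in Scop) was lower in ICI without overlap. So was Ptprz1 (0.0497 to 0.0865 FPKM in ICI, 0.119 to 0.151 in Scop). Foxd3 was higher without overlap (0.0532 to 0.0642 FPKM in ICI, 0 to 0.0467 in Scop). With no filter their limma adjusted p were 0.267, 0.267 and 0.381. The share of such genes under the limit was not counted. The first 4 genes named below had the smallest unadjusted p of those tested, and all 4 are among the 5 with positive log2 fold changes. Gldn, the gliomedin of the node of Ranvier, was at 0.644 ± 0.200 FPKM in ICI and 0.386 ± 0.189 FPKM in Scop. That Scop mean is under the 0.5 FPKM required for testing, so Gldn was tested only through its ICI values. Its lowest value was in Scop replicate 3 (0.125 FPKM, 20 fragments). Ncam1, an adhesion molecule gene of non-myelinating Schwann cells and axons, was at 2.09 ± 0.441 FPKM in ICI and 1.62 ± 0.448 FPKM in Scop, with its lowest value in Scop replicate 3. Ngfr, the p75 neurotrophin receptor gene, was at 20.0 ± 3.14 FPKM in ICI and 17.2 ± 0.939 FPKM in Scop, and Prx, a scaffold gene of myelinating Schwann cells, at 1.24 ± 0.0531 FPKM in ICI and 1.11 ± 0.158 FPKM in Scop. Their limma adjusted p lay between 0.459 and 0.691. Mal, a proteolipid gene of myelin and of epithelial apical membranes, made up most of the list's summed level (1640 to 1707 FPKM in ICI, 1548 to 1966 FPKM in Scop), at 1575 ± 29.2 FPKM in ICI and 1598 ± 184 FPKM in Scop.

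**Figure D4:**
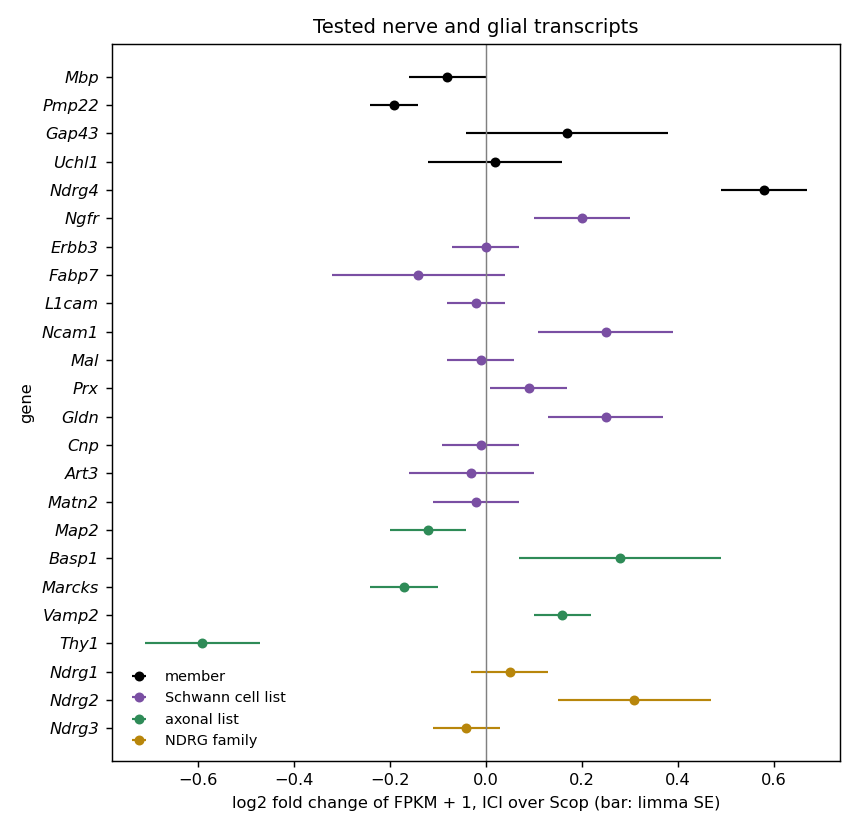
Log2 fold change of FPKM + 1, ICI over Scop (horizontal axis, bars are limma's standard errors), for the tested members and the tested genes of the Schwann cell, axonal and NDRG lists, without 1 gene that is not reported here. Ndrg4 (0.58) lies highest and Thy1 (-0.59) lowest, and none passed the test adjusted over all genes.

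Of 20 listed genes of the axonal cytoskeleton and of transmitter release 5 were tested, 0 passed in either direction, and 2 had positive and 3 negative values (median -0.12). Thy1, a surface protein gene of neurons, fibroblasts and T cells, was at 0.549 ± 0.159 FPKM in ICI and 1.34 ± 0.335 FPKM in Scop without overlap (log2 fold change -0.59, SE 0.12, limma adjusted p = 0.162). Vamp2, a synaptic vesicle protein gene, was at 22.2 ± 0.387 FPKM in ICI and 19.8 ± 1.52 FPKM in Scop, also without overlap (limma adjusted p = 0.343). Marcks, an actin-binding protein gene, was at 35.6 ± 3.86 FPKM in ICI and 40.1 ± 1.27 FPKM in Scop, and Map2, a microtubule-binding protein gene, at 1.09 ± 0.130 FPKM in ICI and 1.27 ± 0.103 FPKM in Scop, both with overlap. Neurofilament transcripts were low. Nefl, the light chain gene, had 20, 2, 5 and 1 fragments in ICI replicates 1 to 4 and 1, 3, 0 and 14 in Scop replicates 1 to 4, and ICI replicate 1 was the highest, as for Tubb3.

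Of 16 listed genes of sensory and sympathetic neuron identity 8 were in the table, and the others are not analysed here. Calca, which codes for the neuropeptide CGRP, was at 0 in every library, and Slc6a2, the norepinephrine transporter gene of sympathetic neurons, had at most 6 fragments in a library. Npy, a neuropeptide gene, was the only tested gene of this list. It was at 54.8 FPKM in ICI replicate 1 and 16.4 to 22.1 FPKM in the other ICI libraries, and at 10.6 to 34.9 FPKM in Scop (log2 fold change 0.21, SE 0.42, limma adjusted p = 0.865). That log2 fold change was -0.26 with the keratocyte score in the fit, -0.16 without ICI replicate 1, -0.10 without Scop replicate 3, 0.44 without Scop replicate 1 and 0.70 with the ribosomal RNA score, so its sign rested on single libraries.

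Markers of other cells that could hold these transcripts were measured beside them. Krt12, the keratin of the corneal epithelium, was at 15374 to 16247 FPKM in ICI and 15153 to 18414 FPKM in Scop, and the 6 epithelial markers summed to 33777 to 35711 FPKM in ICI and 33672 to 38537 FPKM in Scop. None of the 6 passed (2 positive, 4 negative, median -0.04). Of the 7 melanocyte markers, which matter for Sox10, 2 were tested and overlapped. Dct was at 0.850 ± 0.285 FPKM in ICI and 0.840 ± 0.172 FPKM in Scop, and Pmel at 0.587 ± 0.142 FPKM in ICI and 0.632 ± 0.0254 FPKM in Scop, with a sum over the list of 1.46 to 2.23 FPKM in ICI and 1.45 to 2.20 FPKM in Scop. Tyr, the defining melanin enzyme gene, had 10 fragments in ICI replicate 4, 1 in Scop replicate 3 and 0 in the other libraries. Tyrp1, also under the limit, had 4, 2, 1 and 0 fragments in ICI replicates 1 to 4. In Scop replicates 1 to 4 it had 8, 7, 5 and 15, and its FPKM did not overlap (limma adjusted p = 0.432 with no filter). With no filter, 2 of the 7 melanocyte markers were positive and 5 negative (median -0.04). The 7 vessel and immune markers summed to 11.9 to 15.6 FPKM in ICI and 11.8 to 15.6 FPKM in Scop, with 0 of 4 tested passing. The 4 skeletal muscle markers in the table summed to at most 0.367 FPKM in any library. The part of these cells in the values of the members was not tested.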

How the data were processed

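RNA-seq of 8 pooled corneal samples was used. The submitters' processing notes name HISAT2, HTSeq, fastp and the build mm10. Their roles, the annotation used and the strand setting were not given in the sources used here. The authors deposited FPKM values, 1 column per sample, matched by sample title. Whole fragments were recovered from the steps of the FPKM (ratios read as fractions within 5e-13, whole within 0.01) for 99.8% of genes, with totals of 37511932 to 39416490 in ICI and 34354346 to 39885822 in Scop. Intervals and floors on them cover counting error only.

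The test was limma 3.58.1 in R 4.3.3 (eBayes with trend) on log2(FPKM + 1) over genes averaging 0.5 FPKM or more, two-sided, with Benjamini-Hochberg adjustment over all of them and a threshold of 0.05. On simulated data for this comparison (11968 genes), 17 of 49 genes with a 1.25-fold change were recovered. With a 1.5-fold change 36 of 47 were recovered and with a 2-fold change 45 of 47, beside 8 wrong calls in all. The simulation drew each gene independently, without shifts shared by many genes of a library, such as the low keratocyte genes of Scop replicate 3. These rates therefore need not hold for the real data. The keratocyte score is the mean log2(FPKM + 1) of the keratocyte markers, and the ribosomal RNA score that of Gm26917, AY036118 and Lars2. Correlations used exact permutation over pairings, two-sided. The members and lists were chosen with earlier results of these data known. Beside the members, the text names up to 4 tested genes per list by smallest unadjusted p, genes at 0 in all libraries and the 3 most similar profiles. Mal, Nefl, Slc6a2, Tyr, Tyrp1, Gfra3, Ptprz1, Foxd3, Fabp7, Lum, Dcn, Aldh3a1, Gm26917 and Uchl1os fall outside that rule and were named after their values were seen. No pair of libraries differed by sampling noise alone (lowest chi-square per degree of freedom 12.5). Alternatives were pseudocounts of 0.1 and 5, no filter, median-ratio scaling, a replicate block, limma-voom on recovered fragments, the keratocyte score as covariate, each library left out and, added after seeing the data, the ribosomal RNA score as covariate. Some listed genes are counted but not reported singly here.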

Additional observations from a re-analysis of the deposited data

Results flagged for a closer look

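Single libraries lay far from the other 3 of their group in 14 cases, over 12 genes, out of 122 groups checked for 61 genes. Chance flags about 1 group in 20 of normally distributed values, a rate that does not apply here. Mal, Slc6a2, Tyr and Gm26917 were named after their values were seen, and Slc6a2 and Tyr had at most 10 fragments in a library. Pmp22 in ICI replicate 3 (16.5 FPKM) and Gap43 in ICI replicate 1 (2.79 FPKM) were the highest of their group by a wide gap. The same held for Thy1 in ICI replicate 2 (0.786 FPKM), Npy in ICI replicate 1 (54.8 FPKM) and Slc6a2 in ICI replicate 1 (0.0160 FPKM). It also held for Mal (1870 FPKM) and Erbb3 (44.2 FPKM) in Scop replicate 3, Gm26917 in Scop replicate 4 (4936 FPKM), and Tyr in ICI replicate 4 (0.0378 FPKM) and Scop replicate 3 (0.00412 FPKM). Kera in Scop replicate 3 (39.0 FPKM), Cct2 in ICI replicate 1 (86.8 FPKM) and Capsl in ICI replicate 1 (4.40 FPKM) and Scop replicate 1 (3.16 FPKM) were the lowest.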

How the results depend on the processing

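Ndrg4 stayed higher and Pmp22 lower in ICI under each of the 16 alternatives run, and no alternative brought a member or a gene of the nerve and glia lists past the adjusted threshold. Over all genes the count of calls was 0, and it was 1 with the keratocyte score as a covariate. With the ribosomal RNA score, chosen after seeing the data, it was 0, and the sign of Uchl1 turned (-0.07). With 1 library left out it ranged from 0 to 6, with 1 call without Scop replicate 1, 1 without Scop replicate 3 and 6 without Scop replicate 4. With the keratocyte score the signs of Mbp (0.01), Gap43 (-0.16) and Uchl1 (-0.14) turned. Without Scop replicate 3 Gap43 (-0.05) and Uchl1 (-0.09) turned, and without Scop replicate 2 Uchl1 (-0.02). With 1 library left out, Ndrg4 ranged from 0.54 to 0.64, Pmp22 from -0.22 to -0.17, Gap43 from -0.05 to 0.29, Mbp from -0.14 to -0.01 and Uchl1 from -0.09 to 0.07. Uchl1 fell under the filter without ICI replicate 2, Scop replicate 1 or Scop replicate 4. The cause of these turns was not tested. Libraries with the same replicate number did not all deviate together (r of -0.01 to 0.29 over genes), so the numbers were not taken as pairs, and with the replicate block 0 genes were called and Ndrg4 was 0.58 (adjusted p = 0.160). Sox10, Cdh19 and Tubb3 lay under the filter with 167, 146 and 39 fragments over all libraries, and their SDs between libraries were 1.54 to 3.45 times the counting error, so depth as the limit was not tested.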
